A study of Mus musculus with 96 samples.

Results

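The MBT-domain genes are a family of chromatin regulators related to the Polycomb group. A list of 10 genes under that name was followed here in striatum and cortex of mice. The mice carried a Huntington's disease knock-in allele, a Pms1 mutation, both or neither. Protein sequences were not examined, so whether each listed member, Scml4 among them, holds MBT repeats was not checked. The 10 genes (Sfmbt1, Sfmbt2, Scmh1, Scml2, Scml4, L3mbtl1, L3mbtl2, L3mbtl3, L3mbtl4 and Mbtd1) were listed by name out of 48795 genes in the count table, and they were chosen by the measured rise of 1 of them, Sfmbt2, in Q140 against wild type striatum. Each name matched 1 row of the table, and all 10 genes passed the filter on low counts in both tissues. The comparison of Q140 with wild type striatum therefore served to choose the list and is given as a description only.

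RNA of striatum and cerebral cortex had been sequenced from 48 mice of 6 months of age on a C57BL/6 background, with both tissues taken from every mouse. There were 6 genotypes, namely wild type (WT), the heterozygous Q140 knock-in (Q140), Pms1+/- (Pms1 het), Pms1-/- (Pms1 null), and the knock-in combined with Pms1+/- (Q140 Pms1 het) or with Pms1-/- (Q140 Pms1 null), each with 8 animals, 4 of them female. The Q140 allele places an expanded CAG repeat in the endogenous Htt gene, so all cells that express Htt carry it, and Pms1 encodes a MutL subunit of DNA mismatch repair. The labels give neither the kind of Pms1 mutation nor whether littermates were used.

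Library totals lay between 27993751 and 56364535 counts. Summed markers of striatum were at 6663 to 11640 CPM (counts scaled to library size) in striatal and at 240 to 297.7 in cortical libraries. Summed markers of cortex were at 30.99 to 72.3 and 1746 to 2140 CPM, so each tissue carried its own markers. Summed choroid plexus markers in cortex reached 714.8 CPM in Q140, 572.5 in Pms1 null and 571.8 in Q140 Pms1 null libraries. Medians of these groups were 4.082, 2.959 and 3.094 CPM. The highest values of WT, Pms1 het and Q140 Pms1 het cortex were 6.385, 4.406 and 19.25 CPM. The part of choroid plexus in the cortical comparisons was not tested. Of the targeted genes, Pms1 RNA in striatum averaged 5.43 ± 0.34 CPM for the WT and 4.03 ± 0.44 CPM for the Pms1 null group (SD, n = 8 each), and in cortex 3.78 ± 0.40 and 3.53 ± 0.39 CPM. In striatum the WT range of 4.89 to 5.84 CPM did not overlap the Pms1 null range of 3.08 to 4.46 CPM. Pms1 het striatum, at 3.84 to 5.64 CPM, overlapped both, and in cortex the WT and Pms1 null groups overlapped. Counts over the whole gene were thus lower in Pms1 null striatum but largely kept, and alone they do not check that label. The animal codes have 2 numbers, which the sources used here do not explain. Codes that begin with 16 or a higher number (late codes) belong to all animals of both null genotypes, to 2 WT, 3 Q140 and 1 Q140 Pms1 het mice and to 0 Pms1 het mice, so a comparison of null with other animals is also a comparison of late with early codes.

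MBT repeats are pockets that bind lysines carrying 1 or a pair of methyl groups, mostly on histone tails, and proteins with several such repeats can hold nucleosomes in a compact, silent state. In the fly, the Sfmbt protein forms the Pho repressive complex with the DNA-binding factor Pho, the relative of mammalian YY1, and Sex comb on midleg, the relative of the Scm-like genes, bridges Polycomb complexes. In mammals SFMBT1 works with the demethylase LSD1, L3MBTL2 belongs to a variant Polycomb repressive complex 1 (PRC1.6), and MBTD1 is a subunit of the NuA4/TIP60 acetyltransferase. Sfmbt2 is imprinted and needed in the trophoblast, and one of its introns holds a large rodent microRNA cluster.

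Sfmbt2 (ENSMUSG00000061186) lies on chromosome 2 at 10370510 to 10595253 on the plus strand of GRCm38, a span of 224744 bases. The annotation places 119 microRNA genes inside it, and the highest of them averaged 0.0024 CPM in striatum. That value counts reads over annotated genes and is no measure of mature microRNAs, so nothing is read from it. Its start is overlapped by the antisense gene Gm13261, which had at most 1 count in any library, although reads of overlapping genes cannot be told apart where strand was not used. L3mbtl3 lies on chromosome 10 at 26274468 to 26375971 (minus strand) and L3mbtl1 on chromosome 2 at 162943472 to 162974522 (plus strand). L3mbtl2, on chromosome 15 at 81663889 to 81688315, overlaps the antisense gene Chadl, and since the sources used here do not give the strand setting of the counting, its values are uncertain to that extent.

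The promoter sequences of Sfmbt2, L3mbtl3 and L3mbtl1 are shown because these genes had the widest knock-in differences among the members with more than 2 CPM in striatum, 1 of them in the opposite direction. Each run is the 250 bases before an annotated RefSeq start (GRCm38.p6), read 5′ to 3′ in the sense of the gene, with CG dinucleotides in capitals. The 2 windows of Sfmbt2 belong to 2 alternative starts.
Sfmbt2, chr2:10370201-10370450, plus strand: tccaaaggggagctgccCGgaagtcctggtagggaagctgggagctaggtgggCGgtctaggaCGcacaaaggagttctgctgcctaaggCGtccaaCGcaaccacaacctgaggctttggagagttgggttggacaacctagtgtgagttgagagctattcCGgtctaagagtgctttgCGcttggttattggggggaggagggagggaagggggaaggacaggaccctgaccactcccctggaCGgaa
Sfmbt2, chr2:10372186-10372435, plus strand: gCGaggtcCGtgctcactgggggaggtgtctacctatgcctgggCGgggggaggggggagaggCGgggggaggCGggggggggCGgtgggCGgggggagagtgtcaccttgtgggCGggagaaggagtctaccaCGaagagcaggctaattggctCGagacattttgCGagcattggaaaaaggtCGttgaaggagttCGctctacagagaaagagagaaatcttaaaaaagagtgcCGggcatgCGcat
L3mbtl3, chr10:26375220-26375469, minus strand: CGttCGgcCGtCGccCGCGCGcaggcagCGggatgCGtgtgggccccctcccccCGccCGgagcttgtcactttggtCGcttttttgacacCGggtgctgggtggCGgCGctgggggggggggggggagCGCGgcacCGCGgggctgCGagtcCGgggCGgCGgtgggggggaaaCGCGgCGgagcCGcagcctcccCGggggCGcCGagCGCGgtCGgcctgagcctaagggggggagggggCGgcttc
L3mbtl1, chr2:162943215-162943464, plus strand: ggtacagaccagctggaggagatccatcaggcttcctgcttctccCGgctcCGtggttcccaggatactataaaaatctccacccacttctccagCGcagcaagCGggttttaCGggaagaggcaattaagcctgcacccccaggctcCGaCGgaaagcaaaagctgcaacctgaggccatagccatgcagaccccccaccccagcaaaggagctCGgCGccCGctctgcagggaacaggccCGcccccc

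The motif counted was CG, which reads the same on both strands. The upstream Sfmbt2 window held 8 CG dinucleotides and the downstream one 15, the L3mbtl3 window shown 34 and that of its other start 37, and the L3mbtl1 window 11, against a median of 6 over 32851 promoter windows of the same length. Of those windows, 57.0% held fewer CG than the upstream Sfmbt2 window, 72.7% fewer than the downstream one, 64.4% fewer than that of L3mbtl1 and 96.5% and 97.8% fewer than those of L3mbtl3. RefSeq promoters were found for 9 of the 10 members, in 13 windows, with 0 to 45 CG each; both ends of that range belonged to alternative starts of Scmh1. Scml4 had no entry.

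In WT animals the family fell into a well expressed and a scarce set. Levels of different genes are compared as FPKM, which divides by gene length and library size. In striatum Scmh1, a homolog of Sex comb on midleg, was highest at 9.33 ± 0.33 FPKM (SD, n = 8), followed by L3mbtl2 at 7.28 ± 0.27, Sfmbt1 at 3.92 ± 0.21, L3mbtl3 at 3.00 ± 0.22, Mbtd1 at 2.94 ± 0.10 and L3mbtl1 at 2.64 ± 0.40 FPKM. The ranges of Scmh1, L3mbtl2, Sfmbt1 and L3mbtl3 did not overlap from one to the next, whereas L3mbtl3, Mbtd1 and L3mbtl1 overlapped. The other 4 members formed the scarce set, in which Sfmbt2 stood at 0.259 ± 0.038 FPKM, Scml2 at 0.162 ± 0.027, L3mbtl4 at 0.129 ± 0.046 and Scml4 between 0.0666 and 0.156 FPKM. The highest scarce animal, at 0.316 FPKM for Sfmbt2, was well below the lowest animal of the well expressed set, at 2.23 FPKM for L3mbtl1. Counts behind these values ran from 67 to 320 per striatal library for Sfmbt2, 22 to 85 for Scml2, 15 to 79 for Scml4 and 5 to 29 for L3mbtl4, so counting noise limits these 4, and the other 6 had at least 286.

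The same 4 members were scarce in cortex, where L3mbtl2 led at 7.26 ± 0.24 FPKM (SD, n = 8), L3mbtl3 followed at 7.09 ± 0.43 and Sfmbt1 at 5.41 ± 0.28 FPKM. L3mbtl2 and L3mbtl3 overlapped there, as did Sfmbt1 and Scmh1 (5.29 ± 0.21 FPKM). In 1 fit over both tissues, with edgeR's quasi-likelihood test and adjustment over all genes tested, 7 of 10 members differed between WT striatum and WT cortex at an adjusted p below 0.05, against 74.5% of all genes tested. The median log2 difference was -0.21 over the members and 0.02 over all genes tested. The WT striatal libraries used here are also part of the comparison that chose the list.

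**Figure D1:**
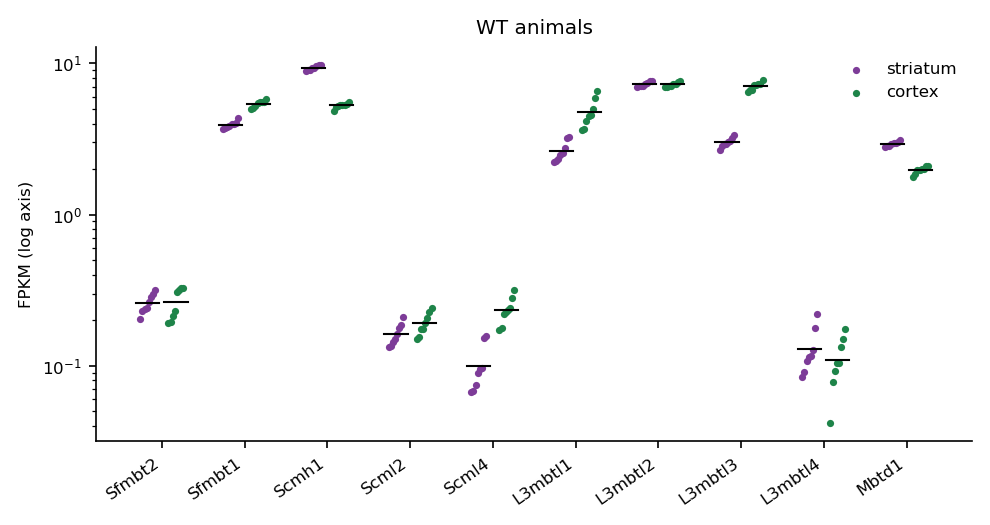
Level of each of the 10 listed genes in WT animals, in FPKM on a log axis, with 1 point per animal (8 per tissue) and a line at the mean. Sfmbt2, Scml2, Scml4 and L3mbtl4 lay below 0.33 FPKM in both tissues, and L3mbtl3 was higher in cortex than in striatum in every animal.

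L3mbtl3, whose product binds LSD1 and the Notch factor RBPJ, was lower in striatum by a log2 difference of -1.25 (SE 0.05, edgeR adjusted p = 1.35e-38), and Scml4 by -1.25 (SE 0.18, adjusted p = 2.33e-09). L3mbtl1, whose product compacts nucleosome arrays, was also lower in striatum (-0.83, SE 0.11), as were Sfmbt1 (-0.46, SE 0.04) and Scml2 (-0.35, SE 0.17, edgeR adjusted p = 0.05 after rounding). Scmh1 was higher in striatum by 0.86 (SE 0.04) and Mbtd1 by 0.59 (SE 0.04). Sfmbt2 itself was at a like level in both tissues, with a log2 difference of -0.07 (95% interval -0.31 to 0.16).

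Sfmbt2, the gene for which the list was made, was higher in striatum with the knock-in than in its controls on each of the 3 Pms1 backgrounds. In WT striatum it ran from 1.94 CPM (lowest) through 2.36 (median) to 2.93 CPM (highest), and in Q140 striatum from 4.63 through 6.47 to 8.23 CPM, with no overlap. This difference (log2 fold change 1.41, SE 0.10) chose the gene and is no independent result. In that comparison 5 of 10 members were past the threshold (Sfmbt2, Scml2 and L3mbtl3 higher, Sfmbt1 and Mbtd1 lower), against 31.3% of all genes tested, and nothing is read from this count.

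The knock-in was compared with its own controls in 2 further sets of animals, which are not part of Q140 against WT. The members were, however, chosen with earlier results of the whole series known. With 1 copy of Pms1, Sfmbt2 in striatum ran from 2.01 through 2.39 to 2.90 CPM in Pms1 het animals. In Q140 Pms1 het animals it ran from 3.71 through 4.47 to 5.53 CPM. Every knock-in animal was above every control, and the log2 fold change was 0.95 (SE 0.10, edgeR adjusted p = 3.13e-10). On the Pms1 null background Sfmbt2 ran from 1.82 through 2.57 to 2.82 CPM in Pms1 null animals and from 2.87 through 3.23 to 4.85 CPM in Q140 Pms1 null animals. The groups again did not overlap, although the gap was narrow and 2 males at 4.35 and 4.85 CPM stood above the other 6 Q140 Pms1 null animals, and the log2 fold change was 0.50 (SE 0.10, edgeR adjusted p = 0.000637). This second call was lost with females alone (0.41, adjusted p = 0.067) and with males alone (0.58, adjusted p = 0.0523), which have fewer animals. P-values treat animals as independent, whereas the consensus correlation of striatal libraries with the same first code number was 0.131.

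**Figure D2:**
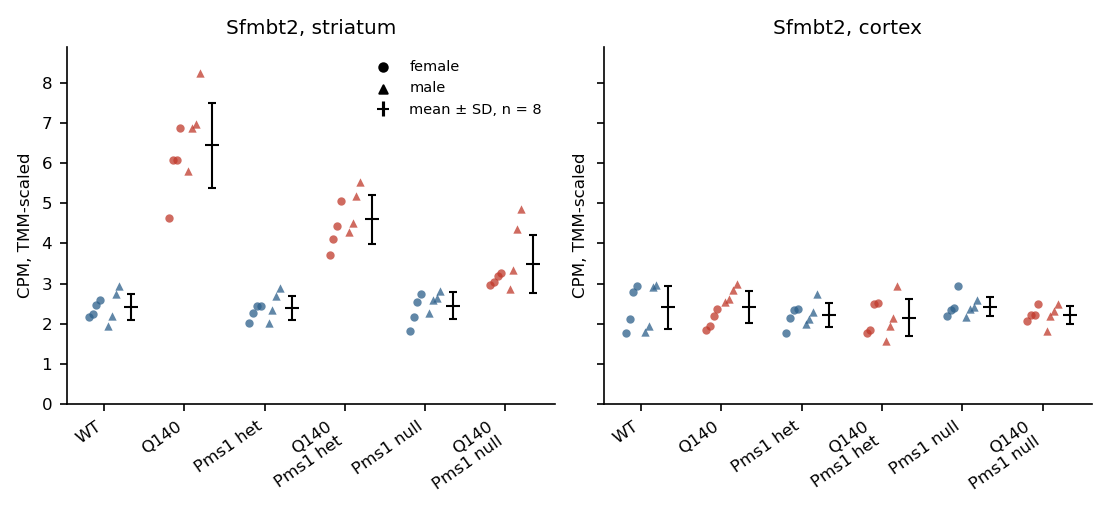
Sfmbt2 in CPM by genotype, in striatum (left) and cortex (right), with 1 point per animal (circles female, triangles male, red with the knock-in, blue without) and the mean ± SD beside each group of 8. In striatum the means with the knock-in were 6.44, 4.595 and 3.48 CPM on WT, Pms1 het and Pms1 null backgrounds, and the control means were 2.41, 2.39 and 2.45 CPM, whereas in cortex all 6 means lay between 2.15 and 2.43 CPM.

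Sfmbt2 was lower in Q140 Pms1 null than in Q140 Pms1 het striatum by a log2 fold change of -0.41 (SE 0.10, edgeR adjusted p = 0.00976), with overlapping groups. Sfmbt2 was the single member called there, 1 of 10, against 3.79% of all genes tested. The call was lost with a term for late codes (-0.45, adjusted p = 0.083), with females alone (-0.47, adjusted p = 0.0618) and with males alone (-0.35, adjusted p = 0.472).

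Comparisons with the Q140 libraries, whose high Sfmbt2 chose the list, are given as a description, and nothing is read from their tests. The log2 fold change of Sfmbt2 was -0.89 (SE 0.10) in Q140 Pms1 null against Q140 striatum, and -0.81 when late codes alone were compared. There 2 of 10 members, Sfmbt2 and L3mbtl3 (-0.21, SE 0.06), were past the threshold by edgeR, against 7.1% of all genes tested, and nothing is read from this count. L3mbtl3 was not past it with a late-code term or with late codes alone (-0.16). In Q140 Pms1 het against Q140, Sfmbt2 had a log2 fold change of -0.48 (SE 0.09). By edgeR 0 of 10 members were past the threshold (1 at an unadjusted p below 0.05), against 0% of all genes tested. By DESeq2 1 member was past it, and 1 of 18890 genes tested. That 1 member was Sfmbt2 in both cases, and nothing is read from these counts.

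Without the knock-in, Sfmbt2 differed by less than its SE between each Pms1 mutant group and WT striatum. The WT striatal libraries are also part of the comparison that chose the list, so what follows is a description. The log2 fold change of Sfmbt2 was 0.02 (95% interval -0.18 to 0.23) in Pms1 null and -0.02 (95% interval -0.22 to 0.19) in Pms1 het striatum. By edgeR 0 of 10 members were called in Pms1 null against WT striatum (1 at an unadjusted p below 0.05), against 7.91% of all genes tested. In Pms1 het striatum against WT 0 of 10 were called (0 at an unadjusted p below 0.05), against 0% of all genes tested. DESeq2, limma on FPKM and the block on the first code number also called 0 members in both.

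Whether the knock-in effect itself differed between the Pms1 backgrounds was tested directly. For Sfmbt2 the effect on the null background minus that on the 1-copy background was -0.45 (SE 0.15, edgeR adjusted p = 0.196), with a 95% interval of -0.73 to -0.16 before adjustment. By edgeR 0 of 10 members passed (2 at an unadjusted p below 0.05, Sfmbt2 and Scmh1), against 0.00529% of all genes tested. DESeq2 also called 0 members, beside 68 of 18890 genes.

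Averaged over the Pms1 het and Pms1 null backgrounds, 32 animals outside the comparison that chose the list, 4 of 10 members rose and 3 fell with the knock-in in striatum. The 7 called members are set against 30.9% of all genes tested, the 4 higher against 16.2% and the 3 lower against 14.7%. The median log2 fold change was -0.01 over the 10 members and 0.00 over all genes tested. With library totals alone as scaling, 7 members were again called, but L3mbtl4 (higher) took the place of Sfmbt1, which made 5 higher and 2 lower. With that scaling the median of all genes moved to 0.04, and the share of higher genes among all called went from 52.5% to 74.8%.

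Sfmbt2 had the highest mean effect of the called members, a log2 fold change of 0.72 (SE 0.07, edgeR adjusted p = 1.99e-11), a 1.65-fold difference. L3mbtl3 ran from 13.1 through 15.1 to 17.9 CPM in Pms1 het and from 17.9 through 18.4 to 19.0 CPM in Q140 Pms1 het striatum. These groups just failed to touch, and the fold change there was 0.27 (SE 0.06, edgeR adjusted p = 0.000646). On the null background L3mbtl3 ran from 12.9 through 14.4 to 16.3 CPM in Pms1 null and from 13.0 through 15.9 to 19.4 CPM in Q140 Pms1 null striatum. There the groups overlapped widely and the gene was not called (0.15, SE 0.06, adjusted p = 0.12). Its mean effect was 0.21 (SE 0.04, edgeR adjusted p = 0.000143), and 0.15 (adjusted p = 0.111) in males alone.

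Scml2, a Polycomb repressive complex 1 (PRC1) partner known from the germ line, averaged 1.12 ± 0.32 CPM in Pms1 het and 1.38 ± 0.22 CPM in Q140 Pms1 het striatum (SD, n = 8). On the null background it averaged 0.987 ± 0.330 and 1.32 ± 0.27 CPM. The groups overlapped on both backgrounds, and the mean effect of 0.37 (SE 0.11, edgeR adjusted p = 0.0113) was lost in females alone (0.48, adjusted p = 0.0878) and in males alone (0.26, adjusted p = 0.158). L3mbtl2 had the smallest called difference, 0.05 (SE 0.02, edgeR adjusted p = 0.022), and was not called without the filter on low counts (0.05, adjusted p = 0.0731), in females alone (0.06, adjusted p = 0.12) or in males alone (0.04, adjusted p = 0.371). With library totals alone it was 0.09 (adjusted p = 0.000155).

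**Figure D3:**
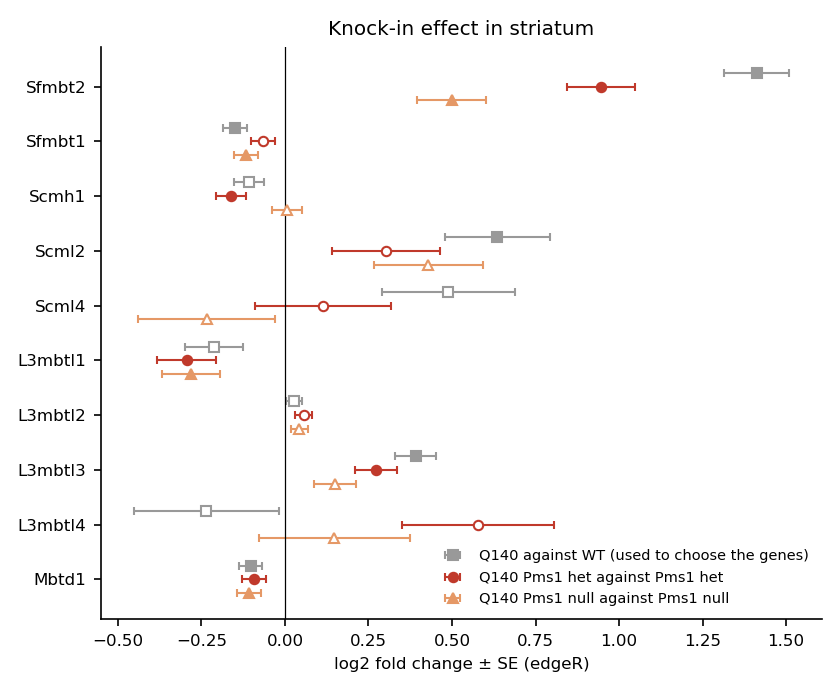
Log2 fold change ± SE (edgeR) of the 10 members in striatum, knock-in against its own control on the WT (grey squares), Pms1 het (red circles) and Pms1 null (orange triangles) backgrounds; filled marks have an adjusted p below 0.05. Sfmbt2 lay farthest from 0 on the WT, Pms1 het and Pms1 null backgrounds, at 1.41, 0.95 and 0.50. On the null background Scml2 stood at 0.43 (SE 0.16), and the error bars of these genes overlapped. L3mbtl1, Sfmbt1 and Mbtd1 lay below 0 on all 3 backgrounds.

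L3mbtl1 was the member that fell most. It ran from 10.5 through 12.1 to 13.7 CPM in Pms1 het and from 8.56 through 9.81 to 10.8 CPM in Q140 Pms1 het striatum. It ran from 9.69 through 13.4 to 14.8 CPM in Pms1 null and from 9.37 through 10.4 to 13.5 CPM in Q140 Pms1 null striatum. Most knock-in animals were below most controls, with overlap on both backgrounds, and the fold changes were -0.29 (SE 0.09, edgeR adjusted p = 0.00989) and -0.28 (SE 0.09, adjusted p = 0.0266). Its mean effect of -0.29 (SE 0.06, edgeR adjusted p = 0.000243) was called in all alternatives that were run for it, from -0.29 to -0.24.

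Mbtd1, the NuA4/TIP60 subunit, fell by a log2 fold change of -0.10 (SE 0.02, edgeR adjusted p = 0.00113), from 41.7 ± 1.9 to 39.1 ± 1.9 CPM on the Pms1 het and from 42.8 ± 2.5 to 39.7 ± 1.7 CPM on the Pms1 null background (SD, n = 8). It was -0.06 (adjusted p = 0.0282) with library totals alone and -0.09 (adjusted p = 0.0921) in males alone. Sfmbt1, the paralog of Sfmbt2 and a partner of LSD1, fell by -0.09 (SE 0.03, edgeR adjusted p = 0.0043), opposite in direction to Sfmbt2. With library totals alone Sfmbt1 was not called (-0.05, adjusted p = 0.107), nor was it called by limma on FPKM or in males alone. For both genes the groups overlapped on each background.

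The other 3 members did not pass on the mean. Scmh1 stood at -0.08 (SE 0.03, edgeR adjusted p = 0.0574), although DESeq2, the fit with the first code number as a block and the fit without the libraries high in cortex markers called it. It was lower on the 1-copy background (-0.16, SE 0.05, adjusted p = 0.00583) and at 0.01 (SE 0.04) on the null background. L3mbtl4 stood at 0.36 (SE 0.16, edgeR adjusted p = 0.0807), and was called with library totals alone and by limma on FPKM. Scml4 stood at -0.06 (SE 0.14, adjusted p = 0.796). L3mbtl4 and Scml4 are scarce, and their 95% intervals of 0.05 to 0.68 and -0.34 to 0.22 leave room for sizeable differences.

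**Figure D4:**
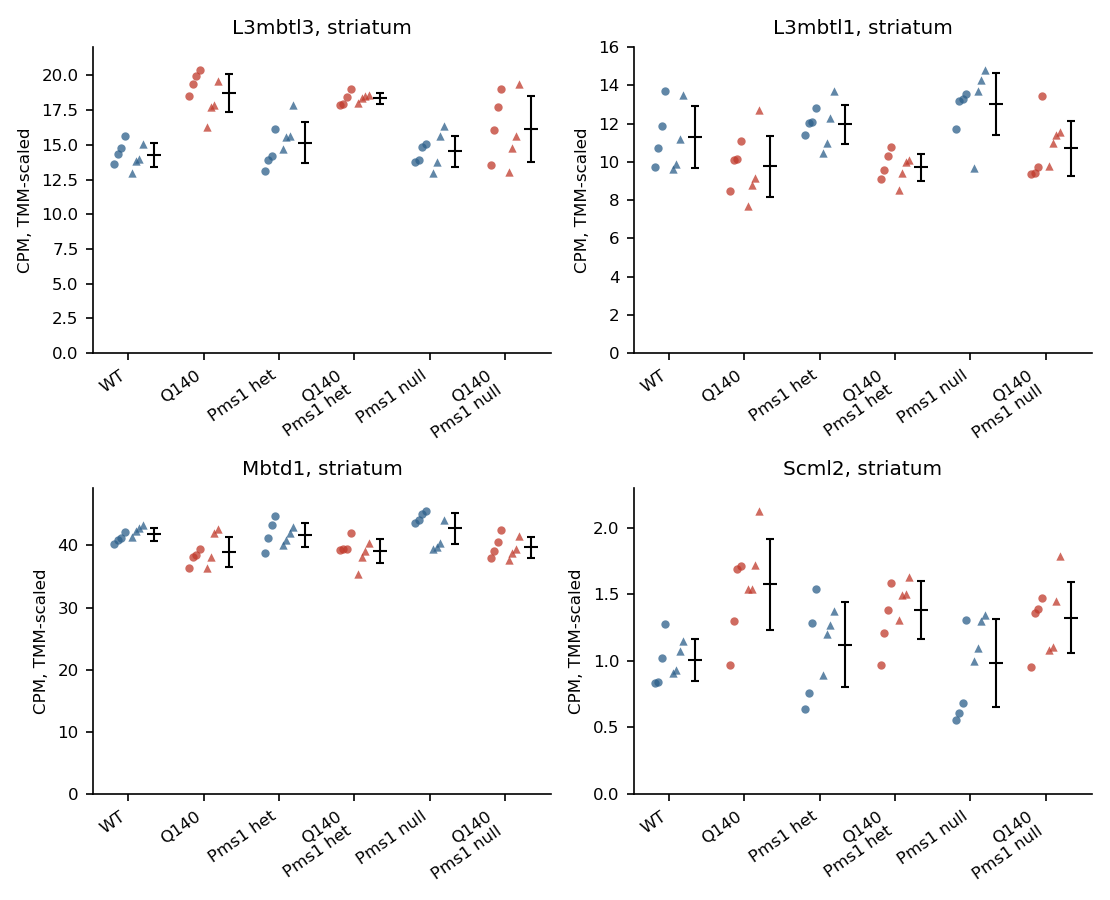
L3mbtl3, L3mbtl1, Mbtd1 and Scml2 in CPM by genotype in striatum, with 1 point per animal (circles female, triangles male, red with the knock-in, blue without) and the mean ± SD beside each group of 8. L3mbtl3 with the knock-in averaged 18.4 and 16.2 CPM on the Pms1 het and null backgrounds against 15.2 and 14.5 CPM without it, and L3mbtl1 9.73 and 10.7 CPM against 12.0 and 13.0 CPM.

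Taken one background at a time, 5 of 10 members were called in Q140 Pms1 het against Pms1 het striatum (Sfmbt2 and L3mbtl3 higher, L3mbtl1, Scmh1 and Mbtd1 lower), against 24.9% of all genes tested. In Q140 Pms1 null against Pms1 null, 4 of 10 were called (Sfmbt2 higher, L3mbtl1, Sfmbt1 and Mbtd1 lower), against 11.1%. Some of these calls were lost in alternatives. Mbtd1 lost its call on the 1-copy background in 7 of 11 alternatives, among them library totals (-0.04, adjusted p = 0.365), and on the null background in 5 of 10, among them the block on the first code number (-0.10, adjusted p = 0.0684). Scmh1 on the 1-copy background and Sfmbt1 on the null background each lost theirs in 4 alternatives. L3mbtl1 lost its call on both backgrounds with either sex alone, and on the null background also without the filter on low counts. L3mbtl3 lost its call on the 1-copy background with males alone. The 8 animals of each group did not overlap in CPM for 2 members on the 1-copy background (Sfmbt2 and L3mbtl3), against 4.82% of all genes tested, and for 1 member on the null background (Sfmbt2), against 1.22%.

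Markers of striatal neurons moved with these results. All 9 were detected, and 8 of 9 fell and 1 (Tac1) rose in the mean knock-in effect, with a median log2 fold change of -0.38 against 0.00 over all genes tested. Their summed level ran from 9848 to 11300 CPM in Pms1 het, 6878 to 8254 in Q140 Pms1 het, 9703 to 11640 in Pms1 null and 7755 to 9192 CPM in Q140 Pms1 null striatum. In bulk tissue fewer cells of a type and less RNA per cell cannot be told apart, and the part of these markers in the members' differences was not tested. Of 5 microglial, 5 astrocyte and 5 oligodendrocyte markers 1 each fell, of 5 endothelial and mural markers 2 fell, and of 7 cortical markers 1 rose. Of 3 oligodendrocyte precursor, 3 choroid plexus and 4 thalamic or pallidal markers, and of the 1 lymphocyte marker of 5 that was measured, 0 were called. In 4 striatal libraries the cortical markers summed to more than 50 CPM (1 Q140 Pms1 het, 2 Pms1 null and 1 Q140 Pms1 null), and without them 8 members were called in the mean knock-in effect, with Scmh1 the added one.

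In cortex the members showed no called response to the knock-in. Sfmbt2 ran from 1.77 through 2.21 to 2.74 CPM in Pms1 het and from 1.57 through 2.04 to 2.93 CPM in Q140 Pms1 het cortex. It ran from 2.16 through 2.38 to 2.94 CPM in Pms1 null and from 1.82 through 2.21 to 2.50 CPM in Q140 Pms1 null cortex. The groups overlapped on both backgrounds, and over the 3 backgrounds the log2 fold change of Sfmbt2 was -0.06 (95% interval -0.19 to 0.08).

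By edgeR 0 of 10 members were called in cortex in Q140 against WT (0 at an unadjusted p below 0.05), against 0.0428% of all genes tested. The count was 0 for Q140 Pms1 het against Pms1 het (1 unadjusted), against 0.112%, and 0 for Q140 Pms1 null against Pms1 null (2 unadjusted), against 0.0428%. For the mean of the 3 backgrounds it was 0 (0 unadjusted), against 1.73%. DESeq2, limma on FPKM and the block on the first code number called 0 members in each of these 4.

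The tissue difference was tested in the fit over both tissues. The knock-in effect in striatum minus that in cortex, averaged over the Pms1 het and Pms1 null backgrounds, was called for 4 of 10 members, against 13.6% of all genes tested. It was 0.81 for Sfmbt2 (SE 0.11, edgeR adjusted p = 1.58e-08), 0.17 for L3mbtl3 (SE 0.05, adjusted p = 0.0111), -0.36 for L3mbtl1 (SE 0.10, adjusted p = 0.00973) and -0.12 for Mbtd1 (SE 0.04, adjusted p = 0.014). Both tissues came from the same animals, and with the animal as a block these 4 and also Scmh1 and L3mbtl4 were called, 6 in all. With library totals alone Mbtd1 was not called (-0.10, adjusted p = 0.053).

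In cortex without the knock-in, L3mbtl3 was lower in Pms1 null than in WT animals (30.3 ± 0.9 against 33.0 ± 2.0 CPM). The log2 fold change was -0.12 (SE 0.04, edgeR adjusted p = 0.027). L3mbtl3 was 1 of 10 members called, against 9.58% of all genes tested. The count is near that share, and nothing is read from it. The call was lost with a late-code term (-0.11, adjusted p = 0.176), with females alone and with males alone. All Pms1 null animals have late codes, so loss of Pms1 and code cannot be fully told apart here. In the same comparison 3 of 5 endothelial and mural, 2 of 5 microglial and 2 of 9 striatal markers were called lower. So were 1 of 7 cortical, 1 of 5 astrocyte and 1 of 3 oligodendrocyte precursor markers, and 0 listed markers were called higher. The part of these markers in the L3mbtl3 difference was not tested. The L3mbtl1 mean was 24.9 ± 4.5 CPM for Pms1 null cortex and 26.6 ± 4.2 CPM for Q140 Pms1 null cortex, whereas WT cortex had 19.8 ± 4.3 CPM and Q140 cortex 19.7 ± 2.5 CPM (SD, n = 8). The groups overlapped, edgeR gave 0.32 (SE 0.11, adjusted p = 0.063) against WT, and DESeq2 called L3mbtl1 in both null groups, each against its own control with 2 copies of Pms1. With a late-code term edgeR called 0 members in either. In Q140 Pms1 null against Q140 cortex edgeR called 0 of 10 members (4 at an unadjusted p below 0.05), against 0.0107% of all genes tested. DESeq2 called 1 member there (L3mbtl1), beside 123 of 18711 genes. In Pms1 null against WT cortex DESeq2 called 2122 of 18711 genes.

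The sexes were compared within each tissue. In striatum edgeR with TMM scaling called 0 of 10 members between females and males (4 at an unadjusted p below 0.05). Of all genes tested 6.16% passed in that fit. DESeq2 and edgeR with library totals alone each called 1 member, beside 1415 and 1568 of 18890 genes. The 1 was Sfmbt2, lower in females with an edgeR log2 fold change of -0.17 (SE 0.06, adjusted p = 0.0624). In cortex 0 of 10 were called (2 unadjusted, 0 by DESeq2), against 5.36%. The knock-in effect in females minus that in males passed for 0 of 10 members in striatum (0 unadjusted, 0 by DESeq2), against 0% of all genes tested, and for Sfmbt2 it was -0.11 (95% interval -0.40 to 0.18).

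Other genes of Polycomb and related chromatin complexes moved by small amounts in both directions, and the share called was near that of all genes tested. Over 72 such genes outside the family, all measured, 24 were called in the mean knock-in effect in striatum (33.3%, against 30.9% of all genes tested), 11 higher and 13 lower, with a largest difference of 1.22-fold. Of 21 PRC1 genes 4 rose and 4 fell, among them the chromobox reader Cbx8, which rose (0.29, SE 0.05). Of 11 genes of Polycomb repressive complex 2, which methylates histone H3, 0 rose and 2 fell, the accessory subunit Aebp2 (-0.13, SE 0.02) and Rbbp7 (-0.09, SE 0.02). The list medians were 0.01 and -0.02.

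Of 8 genes of the H2A deubiquitinase complex PR-DUB, 3 rose, among them Asxl3 (0.22, SE 0.05), and 2 fell, the catalytic subunit Bap1 (-0.11, SE 0.02) and Foxk2 (-0.09, SE 0.02). Among 8 partners of SFMBT proteins, YY1 and the LSD1 complex, 2 rose and 0 fell, the deacetylase Hdac1 (0.18, SE 0.05) and the corepressor Rcor3 (0.14, SE 0.04). Of 12 PRC1.6 genes 2 rose, L3mbtl2 itself and Rnf2 (0.08, SE 0.03), and 2 fell, the repressor E2f6 (-0.20, SE 0.03) and Tfdp1 (-0.08, SE 0.02). Of 16 NuA4/TIP60 genes 2 rose and 3 fell, none by more than 0.09 on the log2 scale. Medians of these 4 lists were 0.036, 0.023, 0.0126 and -0.00198, beside 0.00289 over all genes tested.

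The genes beside Sfmbt2 on chromosome 2 moved less than Sfmbt2. Of the 5 measured genes on each side, 4 of 10 were called in the mean knock-in effect, 2 higher and 2 lower, against 30.9% of all genes tested. These were Atp5c1 (0.05, SE 0.02), Prkcq (0.12, SE 0.05), Itih5 (-0.10, SE 0.03) and Pfkfb3, a glycolytic regulator (-0.31, SE 0.05). The nearest, Itih5, ends 114 kb before Sfmbt2, and the nearest on the other side, Prkcq, begins 576.9 kb after it.

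Over the 48 striatal libraries, the genes whose log2(CPM + 1) followed Sfmbt2 most closely among 13407 genes were the protocadherins Pcdhb19 (Pearson r = 0.898) and Pcdhb9 (0.896), the N-acetylglucosamine kinase Nagk (0.898), Sh3bgrl (0.895) and Gprasp2 (0.894). Ddit4l (-0.940), Ctxn1 (-0.934) and the actin regulator Cap1 (-0.931) ran most strongly against it. These values are a description: the libraries share genotypes in which many genes moved, and protocadherin paralogs can share reads. After each genotype and sex mean was subtracted, 0 of these 5 stayed among the 5 closest, and r fell to between 0.294 and 0.529. Of the other members L3mbtl3 was the closest, with r of 0.757 over all libraries and 0.350 after subtraction.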

How the data were processed

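The authors deposited raw read counts as whole numbers, 1 per gene and library. The authors' second deposited table holds FPKM values. Over 13612 genes these were the counts divided by 1 factor per gene and 1 per library. STAR 2.7.5c, SAMtools 1.10, HTSeq 0.12.3 and the builds GRCm38 and mm10 are named, without role or order, per the submitters' processing notes. The sources used here do not give the strand setting or the annotation release. Coordinates come from GENCODE M21 (GRCm38), which holds 48349 of 48795 gene identifiers, and promoters from RefSeq.

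The members and all gene lists were chosen with earlier results of these data known. The tests used edgeR 4.0.16 under R 4.3.3 (TMM scaling, filterByExpr by genotype, robust quasi-likelihood fit, Benjamini-Hochberg adjustment, called below 0.05), in 1 fit per tissue over 48 libraries with genotype and sex, leaving 18890 genes in striatum and 18711 in cortex. A further fit held both tissues. CPM values are TMM-scaled within a tissue. On simulated counts for the mean knock-in effect over 18890 genes, 55 of 67 genes changed 1.25-fold and 66 of 66 changed 2-fold were recovered. The changed genes were drawn above a minimum mean count, so recovery does not cover the scarcest genes, such as L3mbtl4. Far fewer genes were changed than were called in the data, and animals were simulated without correlation.

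Alternatives were RLE scaling, library totals alone, no filter, DESeq2 1.42.0, limma 3.58.1 on log2(FPKM + 0.1), the first code number as a block or as a late-code term (16 or more), each sex or code class alone, and, added after seeing the data, leaving out 4 striatal libraries. Named were all members, and of each fixed list up to 4 called genes with the largest mean knock-in effect, 5 neighbours on each side of Sfmbt2, and the 5 most and 3 least correlated genes averaging 1 CPM or more. Deviations of striatum and cortex from their group means correlated within an animal (median r = 0.208 over 48 animals, 46 above 0.1), so the animal pairs the tissues.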

Additional observations from a re-analysis of the deposited data

Results flagged for a closer look

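In 6 of 120 groups of 8 animals, 1 animal stood apart from the other 7 by Dixon's criterion at 95%, and chance gives about 1 in 20 groups. In cortex these were the lowest Q140 animal for Sfmbt1 at 41.018 CPM, the highest Q140 animal for L3mbtl1 at 25.392 CPM, the lowest Pms1 null animal for L3mbtl1 at 15.29 CPM, the highest Q140 Pms1 null animal for L3mbtl2 at 45.786 CPM and the highest Pms1 null animal for Mbtd1 at 32.448 CPM. In striatum it was the highest Q140 Pms1 null animal for Scmh1 at 83.635 CPM.

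The knock-in effect differed between striatum and cortex by an edgeR test of the difference for 4 members: Sfmbt2 (log2 difference 0.81), L3mbtl3 (0.17), L3mbtl1 (-0.36) and Mbtd1 (-0.12).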

How the results depend on the processing

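The direction of every called member's difference was kept in all alternatives run, although 57 pairs of a called difference and an alternative were no longer past the threshold, most often with 1 sex alone; several differences lost their call in more than 1 alternative. All values that changed direction belong to Sfmbt2 differences that were not called. In striatum these were Pms1 null against WT with a late-code term (-0.0100), with females alone (-0.0286) and without the 4 libraries high in cortical markers (-0.00413), and Pms1 het against WT with males alone (0.0279). In cortex they were Q140 against WT with females alone (-0.20) and with a late-code term (-0.0158), Pms1 null against WT with a late-code term (-0.14) and Q140 Pms1 null against Q140 with females alone (0.10).

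The number of members called moved by over 1.5 times as follows. In striatum with females alone it was 3 for Q140 against WT, 2 for the 1-copy and 1 for the null background, 1 for Q140 Pms1 null against Q140 and 0 for Q140 Pms1 null against Q140 Pms1 het. With males alone these were 3, 1, 0, 1 and 0, and 2 for the mean knock-in effect. Fewer animals enter these fits. With a late-code term it was 1 for Q140 Pms1 null against Q140 and 0 for Q140 Pms1 null against Q140 Pms1 het, and with late codes alone 1 for the former. For Q140 Pms1 null against Q140 Pms1 het it was 2 by DESeq2, library totals, limma on FPKM and the block on the first code number. For the null background it was 2 by library totals, limma on FPKM and no filter. Q140 Pms1 het against Q140 gave 1 by DESeq2 and without the filter, and females against males 1 by DESeq2 and library totals. Without the 4 libraries high in cortical markers, Q140 against WT gave 8. In cortex, Pms1 null against WT gave 2 by DESeq2 and 0 with females alone, males alone or a late-code term, and Q140 Pms1 null against Q140 gave 1 by DESeq2. The cause of these shifts was not tested where no smaller number of animals is named.

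With the animal as a replicate block, which pairs the tissues, the tissue difference in knock-in effect was called for 6 members and the WT tissue difference for 7. Within a tissue each animal gives 1 library, so no pairing enters. The 4 scarce members rest on 3 to 320 counts per library, which limits what can be detected for them.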
